A study of Mus musculus with 4 samples.

Results

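Cohesin is the protein ring that holds sister chromatids together, and germ cells build a second version of it for meiosis. The 9 genes that encode the subunits of both versions (Rec8, Rad21l, Rad21, Stag3, Stag1, Stag2, Smc1b, Smc1a and Smc3) were followed by symbol among the 31017 gene symbols counted in single cells of the juvenile mouse testis. The samples were 4 single-cell libraries from testes of Acr-Gfp transgenic mice on the C57BL/6 background, so every group carries the same reporter. Testes taken 7 days postpartum (dpp) were cut into fragments and kept on agarose under a PDMS-ceiling chip for 2 days or for 7 days, which brings the tissue to a total age of 9 and 14 days. Testes of 9 dpp and of 14 dpp that had developed in the animal were the in vivo counterparts. There was 1 library per group, the number of animals behind each is not given in the sources used here, and differences between libraries therefore carry counting error only. The library protocol in the labels speaks of female gonads, whereas titles, tissue and the spermatogonial and Sertoli cell markers below are those of testis.

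Each cohesin ring has an SMC pair (SMC3 with SMC1A or, in meiosis, SMC1B), a kleisin that closes the ring (RAD21, or the meiotic REC8 and RAD21L) and a STAG subunit bound to the kleisin (STAG1 or STAG2, or the meiotic STAG3). In spermatocytes the meiotic rings form the axis of the chromosomes on which homologs pair and recombine. REC8 is known for sister chromatid cohesion that lasts to the meiotic divisions, and RAD21L for a role in early prophase. Smc1a and Stag2 lie on the X chromosome, which is silenced in pachytene spermatocytes, and the other 7 genes are autosomal.

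Germ cells were those with at least 2 unique molecular identifiers (UMIs, each standing for 1 captured transcript) of Ddx4 and Dazl together: 2824 of the 6877 cells after 2 days of culture, 2573 of 4816 after 7 days, and 2741 of 5150 and 4218 of 6195 from testes of 9 dpp and 14 dpp. Median depth was 3737.5, 6836, 11397 and 7788.5 UMIs per germ cell in that order, and library totals ran from 34491701 to 60829941 UMIs. Between 35 and 86 cell barcodes were shared by any pair of libraries. Among the germ cells, 5.88%, 4.62%, 8.17% and 14.9% also held a somatic marker list at 1500 or more UMIs per 1000000 and were left out of staging. The cutoff for this and the scoring of stages were chosen after the distributions of the marker lists were seen, not the subunits. The rest were staged by marker genes that include none of the subunits, into cells like undifferentiated spermatogonia, differentiating spermatogonia, preleptotene, leptotene or zygotene, and pachytene spermatocytes. The older libraries held 195 (7-day culture) and 150 (14 dpp) pachytene-like cells, the younger ones 1 and none. Levels of that stage are therefore given for the older pair alone. Fold changes into it come from a single model fitted over all stages and libraries with at least 20 cells. In the pachytene-like cells of the older pair the pachytene marker list reached 7499 and 13495 CPM, and no more than 557.6 in any other stage. That list set the stage, so this contrast follows from the staging rule. The same cells held 3647 and 3331 CPM of the leptotene and zygotene list. They held 221 and 181 CPM of the undifferentiated list, against 23.6 and 11.5 in leptotene- or zygotene-like cells of these libraries. Leptotene- or zygotene-like cells numbered only 68 at 9 dpp. Levels are given below as UMIs of a gene per 1000000 UMIs of the summed cells (CPM), with exact 95% Poisson intervals where printed, and intervals cover counting error only. Where 4 values follow each other they stand in the order 2-day culture, 7-day culture, 9 dpp, 14 dpp.

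In the GENCODE M21 annotation of GRCm38 the 9 genes are protein-coding. The kleisin genes are Rec8 (ENSMUSG00000002324) at chr14:55618037-55625395 on the plus strand, Rad21l (ENSMUSG00000074704) at chr2:151645404-151668533 on the minus strand and Rad21 (ENSMUSG00000022314) at chr15:51962240-51991747 on the minus strand. The STAG genes are Stag3 (ENSMUSG00000036928) at chr5:138280240-138312393, Stag1 (ENSMUSG00000037286) at chr9:100597798-100959375 and Stag2 (ENSMUSG00000025862) at chrX:42149317-42277185, all on the plus strand. The SMC genes are Smc1b (ENSMUSG00000022432) at chr15:85064689-85131964 on the minus strand, Smc1a (ENSMUSG00000041133) at chrX:152016428-152062694 and Smc3 (ENSMUSG00000024974) at chr19:53600398-53645833, both on the plus strand. Predicted genes overlap Stag1 on both strands and Stag2, Smc1b and Smc1a on the opposite strand.

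The promoters of the 4 meiosis-specific subunits are shown because these genes rise in the same step of differentiation, and because they differ in composition. They are RefSeq windows on GRCm38.p6 of 250 bases before and 50 after the start site, read on the gene's strand. Capitals mark matches to CACGTG (an E-box), TTCCCGC (an E2F-type motif) and CCAAT, each searched on both strands, so that ATTGG and GCGGGAA are matches as well.
Rec8 (chr14:55617916-55618215, plus strand): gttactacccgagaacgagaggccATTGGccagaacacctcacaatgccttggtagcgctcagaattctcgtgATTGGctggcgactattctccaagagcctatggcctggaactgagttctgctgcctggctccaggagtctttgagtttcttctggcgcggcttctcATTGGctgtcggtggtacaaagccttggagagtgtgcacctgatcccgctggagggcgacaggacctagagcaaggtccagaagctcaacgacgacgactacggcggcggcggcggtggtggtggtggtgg
Rad21l (chr2:151668484-151668783, minus strand): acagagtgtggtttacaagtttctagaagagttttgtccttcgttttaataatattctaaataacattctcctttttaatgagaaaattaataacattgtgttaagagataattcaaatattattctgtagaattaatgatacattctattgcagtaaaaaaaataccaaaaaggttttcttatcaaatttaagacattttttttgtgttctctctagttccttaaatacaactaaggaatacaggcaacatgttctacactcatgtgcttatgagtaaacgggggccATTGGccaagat
Stag3 (chr5:138280259-138280558, plus strand): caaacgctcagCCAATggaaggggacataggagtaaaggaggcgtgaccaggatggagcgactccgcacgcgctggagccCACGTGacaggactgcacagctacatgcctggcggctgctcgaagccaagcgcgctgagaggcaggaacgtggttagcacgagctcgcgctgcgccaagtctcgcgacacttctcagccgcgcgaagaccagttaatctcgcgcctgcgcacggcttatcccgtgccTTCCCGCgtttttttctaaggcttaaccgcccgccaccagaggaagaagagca
Smc1b (chr15:85131908-85132207, minus strand): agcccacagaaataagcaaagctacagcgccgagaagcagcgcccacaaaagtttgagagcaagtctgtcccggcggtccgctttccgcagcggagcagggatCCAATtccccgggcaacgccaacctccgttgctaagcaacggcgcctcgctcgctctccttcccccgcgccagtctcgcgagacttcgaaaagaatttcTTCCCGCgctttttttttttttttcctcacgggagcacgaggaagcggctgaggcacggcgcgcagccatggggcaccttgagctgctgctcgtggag
The Rad21l window is AT-rich, with 29% G and C and 2 CpG dinucleotides, whereas Rec8, Stag3 and Smc1b have 58.3%, 61.3% and 60% G and C and 18, 30 and 29 CpGs. The E-box stands in the Stag3 window alone of the 4, with its first base 170 bases before the start, and 7.15% of 32851 promoter windows of this length hold that motif. TTCCCGC, held by 4.60% of all windows, begins 3 bases before the start in Stag3 and 48 bases before it in Smc1b. CCAAT is common, in 37.4% of windows, and occurs 3 times in Rec8 and once in each of the other 3. No motif match overlapped another in these windows. Windows for Stag1, Smc1a and Smc3 were also searched: Stag1 and Smc1a each hold TTCCCGC and CCAAT, and Smc3 holds none of the 3 motifs. A match describes the letters only.

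The first comparison asked which subunits mark germ cells. All 4 meiosis-specific subunits and, to a lesser degree, Smc3 and Stag1 were higher in germ cells than in the other cells of the same libraries. Stag2 and Smc1a were lower there, and Rad21 passed in neither direction. The other cells are all cells under the germ threshold, among them 515, 269, 346 and 377 cells with 1 UMI of Ddx4 or Dazl. These calls are from edgeR's quasi-likelihood test on sums per library and class with the library as a block, with Benjamini-Hochberg adjustment over 15075 genes. Because 75.1% of all genes tested were called in this contrast, 37.4% higher and 37.7% lower, the count of 8 of 9 subunits says little by itself. The median log2 fold change was 1.92 over the subunits and 0.00 over all genes.

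Smc1b, the meiotic partner of SMC3, had 833, 822, 419 and 702 CPM in germ cells, against 26.0, 19.9, 6.38 and 15.8 in other cells. Germ and other cells did not overlap, and the log2 fold change was 5.29 (SE 0.22, edgeR adjusted p = 4.96e-06). Stag3, the meiotic STAG subunit, had 60.1, 71.5, 50.4 and 72.3 CPM in germ cells against 2.05, 2.42, 1.63 and 3.39 in other cells. Its log2 fold change was 4.60 (SE 0.15, edgeR adjusted p = 4.96e-06), and the 4 libraries gave similar ratios, from 21.3-fold to 31.0-fold. Somatic-like cells with no Ddx4 or Dazl UMI had less of both, 10.2, 6.10, 4.25 and 8.05 CPM of Smc1b and 0.996, 0.85, 1.19 and 2.79 of Stag3. Against other cells with no such UMI, the log2 fold changes were 5.97 for Smc1b, 5.17 for Stag3 and 3.11 for Rec8, so that the sizes depend on which cells are counted as other. Over all 17 alternatives they ran from 2.82 to 6.11 for Smc1b and from 2.73 to 5.17 for Stag3. For Rec8 they ran from 1.94 to 3.55 and for Rad21l from 3.65 to 7.66.

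Among the kleisins, Rad21l gave the fewest UMIs, with 6.26, 7.37, 2.34 and 7.35 CPM in germ cells. Other cells held only 3, 5, 1 and 1 Rad21l UMIs, so its ratios of 39.6, 21.3, 51.7 and 93.3 have counting intervals that begin at 13.1, 8.96, 9.03 and 16.6. The log2 fold change was 5.03 (SE 0.41, edgeR adjusted p = 3.87e-05). Rec8 behaved differently between libraries: germ cells had 28.9, 20.3, 22.4 and 19.4 CPM, but other cells had 1.58 and 0.62 in the cultures and 3.98 and 9.14 at 9 and 14 dpp. The germ-to-other ratio of Rec8 was accordingly 18.3-fold (interval 12.6 to 27.5) and 32.6-fold (17.0 to 71.6) in the 2-day and 7-day cultures, 5.63-fold (4.51 to 7.10) at 9 dpp and 2.13-fold (1.75 to 2.60) at 14 dpp. The pooled log2 fold change was 2.82 (SE 0.59, edgeR adjusted p = 0.00344), with the widest error of the 9 genes. Rad21, the mitotic kleisin, had 131, 87.0, 129.6 and 86.8 CPM in germ cells and 73.5, 73.5, 108 and 77.2 in other cells, a log2 fold change of 0.21 (SE 0.13) that did not pass (edgeR adjusted p = 0.168).

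Smc3, common to both rings, had 399, 384, 299 and 359 CPM in germ cells and 71.5, 91.6, 87.7 and 86.0 in other cells (log2 fold change 1.92, SE 0.12, edgeR adjusted p = 1.50e-05). Stag1 was 2.13-fold to 3.07-fold higher in germ cells within the 4 libraries (log2 fold change 1.18, SE 0.11, edgeR adjusted p = 7.04e-05). Because predicted genes overlap Stag1 on its own strand, its counts are uncertain to that extent. Stag2 fell from 27.9, 42.9, 36.5 and 41.6 in other cells to 24.2, 25.2, 26.3 and 28.7 in germ cells (log2 fold change -0.67, SE 0.13, edgeR adjusted p = 0.00208). Smc1a differed least among the calls, at a log2 fold change of -0.36 (SE 0.10, edgeR adjusted p = 0.0155). That call ended without the 2-day culture (edgeR adjusted p = 0.0539), without 14 dpp (0.0847), with germ cells chosen after thinning (0.0925) and under library totals in place of TMM scaling (0.158), where Rad21 in turn passed as higher (log2 fold change 0.38, adjusted p = 0.0386).

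**Figure D1:**
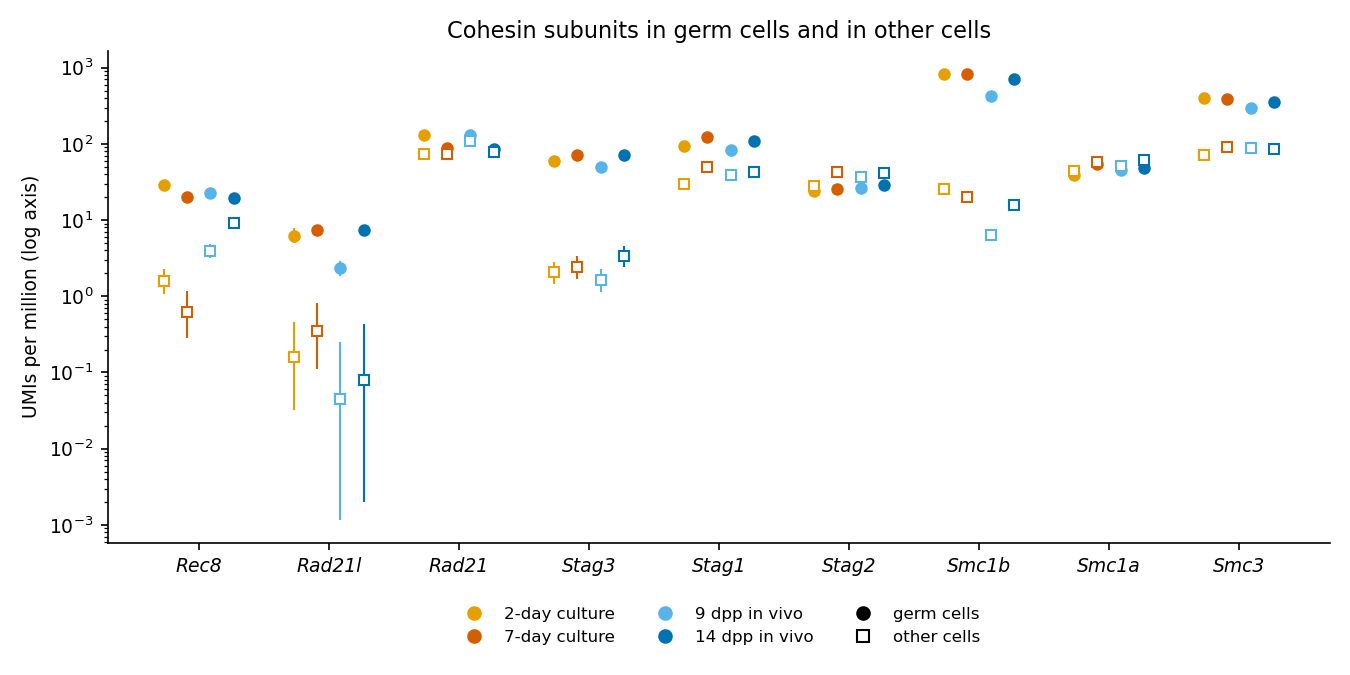
CPM (log axis) of the 9 subunits in germ cells (filled circles) and other cells (open squares) of each library, with exact 95% Poisson intervals as bars. Smc1b and Stag3 are separated by at least 21.3-fold in every library, Rad21l rests on 1 to 5 UMIs in other cells, and the open Rec8 squares spread from 0.62 (7-day culture) to 9.14 (14 dpp).

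Shares of cells with a UMI were compared after each cell was thinned to 2000 UMIs. Rec8, Rad21l, Stag3, Stag1, Smc1b and Smc3 (6 of 9) were detected in a larger share of germ than of other cells in all 4 libraries, with exact intervals that did not overlap, as were 25.5% of all genes tested. The other 3 varied by library: Rad21 was higher in germ cells without overlap in the 2-day culture (19.6% against 11.7%) and at 9 dpp (22.2% against 17.0%), Stag2 was lower without overlap in the 7-day culture and at 14 dpp, and the intervals of Smc1a overlapped in all 4. At 2000 UMIs, Smc1b was detected in 75.1%, 74.0%, 52.5% and 68.8% of germ cells, and in 2.84%, 3.77%, 0.98% and 2.21% of other cells. Without thinning the germ cell shares were 88.6%, 94.4%, 90.7% and 92.9%. Median depth in other cells was 3495, 4491, 6572 and 4757 UMIs. Thinning left out 385, 82, 25 and 60 germ cells and 916, 175, 70 and 215 other cells. Rad21l, at 0.92% to 2.62% of thinned germ cells, was near the limit of detection.

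At 9 and 14 dpp nearly all Rec8 outside germ cells lay in Sertoli-like cells, the somatic nurse cells of the seminiferous tubule, named here from 7 markers (Sox9, Amh, Amhr2, Rhox5, Aard, Clu and Wt1). They held 84 of the 88 Rec8 UMIs of other cells at 9 dpp and 110 of 116 at 14 dpp, against 11 of 30 in the 2-day and 2 of 9 in the 7-day culture. For the levels that follow, only Sertoli-like cells with no UMI of Ddx4 or Dazl were counted. Rec8 had 25.1 CPM there at 14 dpp (73 UMIs in 382 cells, interval 19.7 to 31.6) and 7.99 at 9 dpp (60 UMIs in 541 cells, 6.10 to 10.3). In the 2-day culture the value was 1.01 (5 UMIs in 971 cells, 0.33 to 2.35) and in the 7-day culture 0.56 (2 UMIs in 371 cells, 0.07 to 2.03). Both in vivo values lie above both culture values, and 14 dpp above 9 dpp, beyond counting error and with 1 library each. The Rec8 UMIs were spread over 54 of the 382 cells (14.1%) at 14 dpp and 53 of 541 (9.80%) at 9 dpp, against 5 of 971 (0.51%) and 2 of 371 (0.54%) in the 2-day and 7-day cultures. These shares were not thinned to equal depth. The 971, 371, 541 and 382 cells held 4955166, 3564140, 7509043 and 2907023 UMIs in total.

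The other meiotic subunits did not share this pattern. In the same Sertoli-like cells Rad21l had no UMI in any library, Stag3 had 2.22, 1.40, 0.93 and 3.44 CPM and Smc1b 20.6, 13.5, 5.59 and 10.7. Germ transcripts can reach somatic cells as free RNA, and 10 germ cell genes not used to choose the cells (such as Sycp3, Mael and Hormad1) were set beside the subunits for that reason. Their median level in Sertoli-like cells was 2.88%, 1.31%, 2.07% and 2.29% of that in germ cells, and the 10 genes spread from 1.39% to 13.5% in the 2-day culture and from 0.36% to 8.66% in the 7-day culture. The part of free RNA in these values was not tested. Smc1b stood at 2.47%, 1.64%, 1.33% and 1.52% of its germ cell level, within or just below those ranges. Rec8 stood at 3.49% and 2.77% in the cultures, from 5 and 2 UMIs, and of the 10 reference genes only Tdrd5 was higher there. Rec8 stood at 35.7% at 9 dpp and 129% at 14 dpp, above all 10 reference genes. Their highest values in those libraries were 9.79% and 6.26%. Somatic cells of the other classes with no Ddx4 or Dazl UMI held 2 Rec8 UMIs in 1513 cells at 9 dpp (0.20 CPM) and 6 in 1204 cells at 14 dpp (0.94). Rec8 is flanked by Irf9, 8006 bases before it, and by Ipo4, on the opposite strand 4 bases after it. Both neighbours were looked at after the Rec8 values were seen. Ipo4 had 24.4, 22.7, 27.3 and 25.5 CPM in Sertoli-like cells, with intervals that all overlapped, and Irf9 had 36.9, 28.3, 15.6 and 26.5. The part of reads from neighbouring genes in the Rec8 values was not tested.

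**Figure D2:**
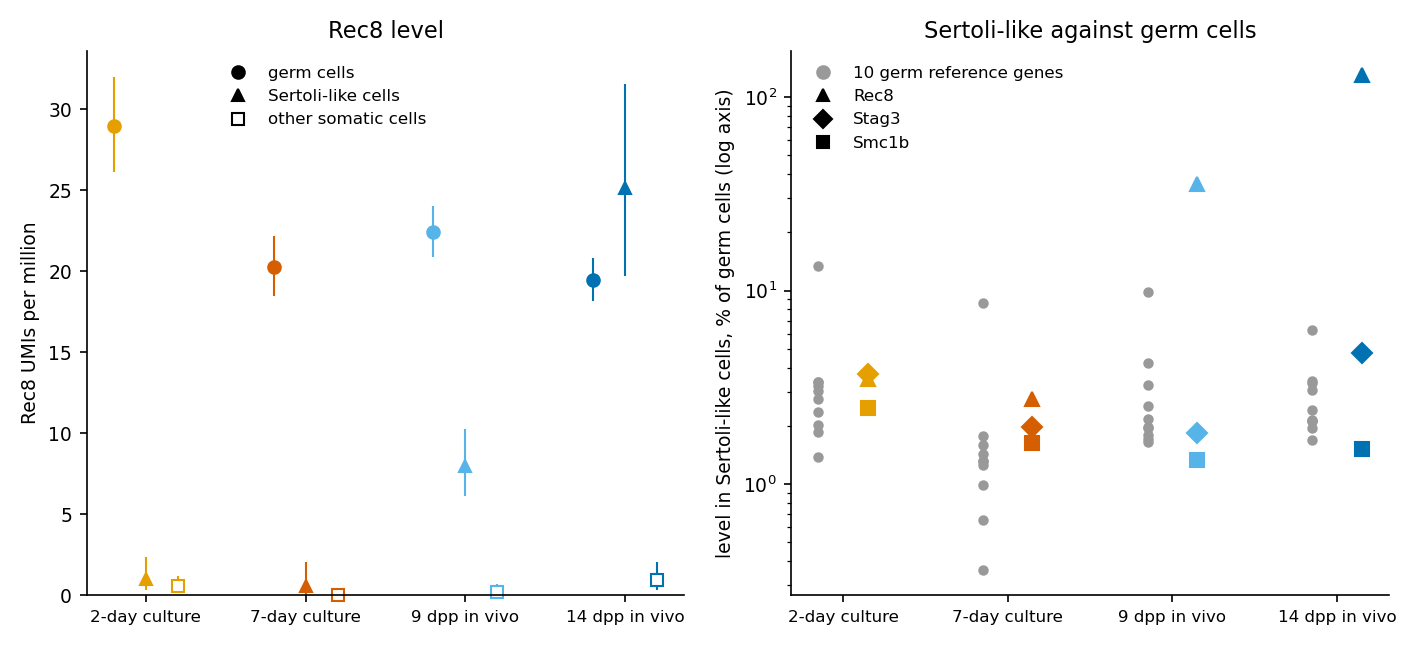
Left, Rec8 CPM in germ cells, Sertoli-like cells and other somatic cells of each library, with exact 95% Poisson intervals. Right, level in Sertoli-like cells as a percentage of that in germ cells (log axis) for Rec8, Stag3, Smc1b and 10 germ reference genes (grey). In the cultures Rec8 rests on 5 and 2 UMIs and only the reference gene Tdrd5 lies above it. At 9 and 14 dpp Rec8 lies far above all 10 reference genes.

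The second comparison followed the subunits through the germ stages. From undifferentiated spermatogonia to preleptotene the 4 meiosis-specific subunits rose while the mitotic kleisin Rad21 fell, and in pachytene-like cells 6 of the 9 subunits fell, in a step where 26.9% of all genes fell. Rec8 was highest in preleptotene-like cells of all 4 libraries and fell at leptotene or zygotene. Rad21l was highest in preleptotene-like cells of the 7-day culture and 14 dpp and in leptotene- or zygotene-like cells of the other 2 libraries, with no call between these stages. Each step was tested with edgeR on sums per library and stage over 12798 genes, and stages were set on other genes of the same cells.

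Rec8 was low in undifferentiated-like spermatogonia, with 6.00, 5.48, 8.89 and 8.32 CPM. In differentiating-like spermatogonia it had 30.2, 33.5, 21.1 and 20.7, and in preleptotene-like cells 46.0, 64.4, 94.5 and 68.1. Every library stepped up both times, and the levels in CPM of the 3 stages did not overlap. With cells thinned to 2000 UMIs, the share with a Rec8 UMI was 0.56% to 1.69% in undifferentiated-like, 5.0% to 6.78% in differentiating-like and 7.26% to 17.2% in preleptotene-like cells over the 4 libraries. At that equal depth the last 2 stages were not separated in the 2-day culture, where the shares were 6.34% (interval 5.0% to 7.90%) and 7.26% (5.40% to 9.51%). The log2 fold changes were 1.77 (SE 0.33, edgeR adjusted p = 0.000211) and then 1.43 (SE 0.28, adjusted p = 0.000565). In leptotene- or zygotene-like cells Rec8 had 18.6, 4.90, 15.9 and 6.93, a fall by 2.82 on the log2 scale (SE 0.37, edgeR adjusted p = 8.24e-06), from 19, 21, 6 and 21 UMIs. In the pachytene-like cells of the older pair (7-day culture, 14 dpp), 4.46 and 1.11 were left. That last step did not pass (log2 fold change -1.39, edgeR adjusted p = 0.060) and passed in 7 of 13 alternatives, among them that without the 7-day culture (-2.92, adjusted p = 0.00631).

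Rad21l had at most 2.74 CPM in undifferentiated-like and 4.72 in differentiating-like spermatogonia. It rose to 11.1, 22.5, 13.9 and 46.9 in preleptotene-like cells (log2 fold change 2.98, SE 0.36, edgeR adjusted p = 6.64e-06). Leptotene- or zygotene-like cells had 17.7, 16.8, 31.8 and 25.4: higher than preleptotene in the 2-day culture and at 9 dpp, lower in the other 2 libraries, and no call (log2 fold change -0.10, SE 0.37, adjusted p = 0.846). The pachytene-like cells of the 7-day culture held 3 UMIs (0.96 CPM) and those of 14 dpp 1 UMI (0.28), a fall by 5.14 on the log2 scale (SE 0.74, edgeR adjusted p = 8.37e-06).

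Rad21 ran the other way. It had 172, 172, 142 and 147 CPM in undifferentiated-like spermatogonia and 158, 126, 138 and 116 in differentiating-like ones, a difference that did not pass (edgeR adjusted p = 0.318). It then fell to 101, 66.0, 57.8 and 29.3 in preleptotene-like cells (log2 fold change -1.11, SE 0.21, adjusted p = 0.000389) and to 44.1, 14.7, 39.8 and 20.4 in leptotene- or zygotene-like cells (log2 fold change -1.16, SE 0.25, adjusted p = 0.000975). Both calls ended under another scoring of the stage lists (adjusted p = 0.173 and 0.149), and the second with the mixed cells kept (0.349). Pachytene-like cells of the older pair had 10.8 and 9.95, a step with no call (log2 fold change -0.80, adjusted p = 0.0597). It passed in 4 of 13 alternatives and turned positive in 2, at 0.65 under another scoring and 0.46 with the mixed cells kept.

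Stag3 climbed from 36.0, 19.2, 35.0 and 29.4 CPM in undifferentiated-like spermatogonia to 43.6, 53.3, 48.5 and 55.95 in differentiating-like ones and 87.8, 112, 173 and 166 in preleptotene-like cells. The log2 fold changes were 0.84 (SE 0.19, edgeR adjusted p = 0.00137) and 1.44 (SE 0.18, adjusted p = 6.72e-06). Leptotene- or zygotene-like cells had 166, 128, 247 and 183, and the further step of 0.48 (SE 0.18, adjusted p = 0.0340) was lost in 8 of 13 alternatives. In pachytene-like cells of the older pair Stag3 had 103 and 112 CPM, with no call for that step (log2 fold change -0.40, SE 0.23, adjusted p = 0.152). It was called as a fall under library totals (-0.65, adjusted p = 0.0204) and another scoring of the stage lists (-0.87, adjusted p = 0.0336). Stag1, the STAG subunit of mitotic cells that remains on the autosomes, was highest in preleptotene-like cells in 3 of 4 libraries, with a range of 109.6 to 179. Its small steps of 0.39 and 0.42 up to preleptotene (edgeR adjusted p = 0.0301 and 0.0192) were each lost in 7 of 13 alternatives. It fell by 0.76 to 84.7 and 70.5 in pachytene-like cells (SE 0.18, edgeR adjusted p = 0.00162), a call lost without 14 dpp (0.103), which leaves a single library with that stage, and without the library block (0.0774). Stag2 stayed between 21.6 and 35.7 CPM from undifferentiated-like to leptotene- or zygotene-like cells, with no call in those 3 steps.

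Smc1b was already present in undifferentiated-like spermatogonia, with 633, 400.2, 221 and 263 CPM. It rose through 711, 739.8, 442 and 616 in differentiating-like spermatogonia to 1089, 1549, 1269 and 1826 in preleptotene-like cells. Those steps were 0.78 (SE 0.25, edgeR adjusted p = 0.0144, lost without 14 dpp at 0.0892) and 1.28 (SE 0.25, adjusted p = 0.000550) on the log2 scale. Leptotene- or zygotene-like cells had 1934, 1381, 2737 and 1815 (log2 fold change 0.52, adjusted p = 0.0974), and pachytene-like cells of the older pair 676 and 829, a fall by 1.12 (SE 0.33, adjusted p = 0.00726). Smc3 rose only at preleptotene, from 374, 445, 283 and 375 in differentiating-like spermatogonia to 519.6, 693, 529 and 795 (log2 fold change 0.84, SE 0.18, edgeR adjusted p = 0.00129). It then fell by 2.06 (SE 0.26, adjusted p = 1.47e-06) to 156 and 82.6 in pachytene-like cells. Smc1a had 33.6 to 84.0 CPM up to preleptotene. Its single call on the way, a step of 0.40 from undifferentiated to differentiating (edgeR adjusted p = 0.0428), was lost in 10 of 13 alternatives.

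**Figure D3:**
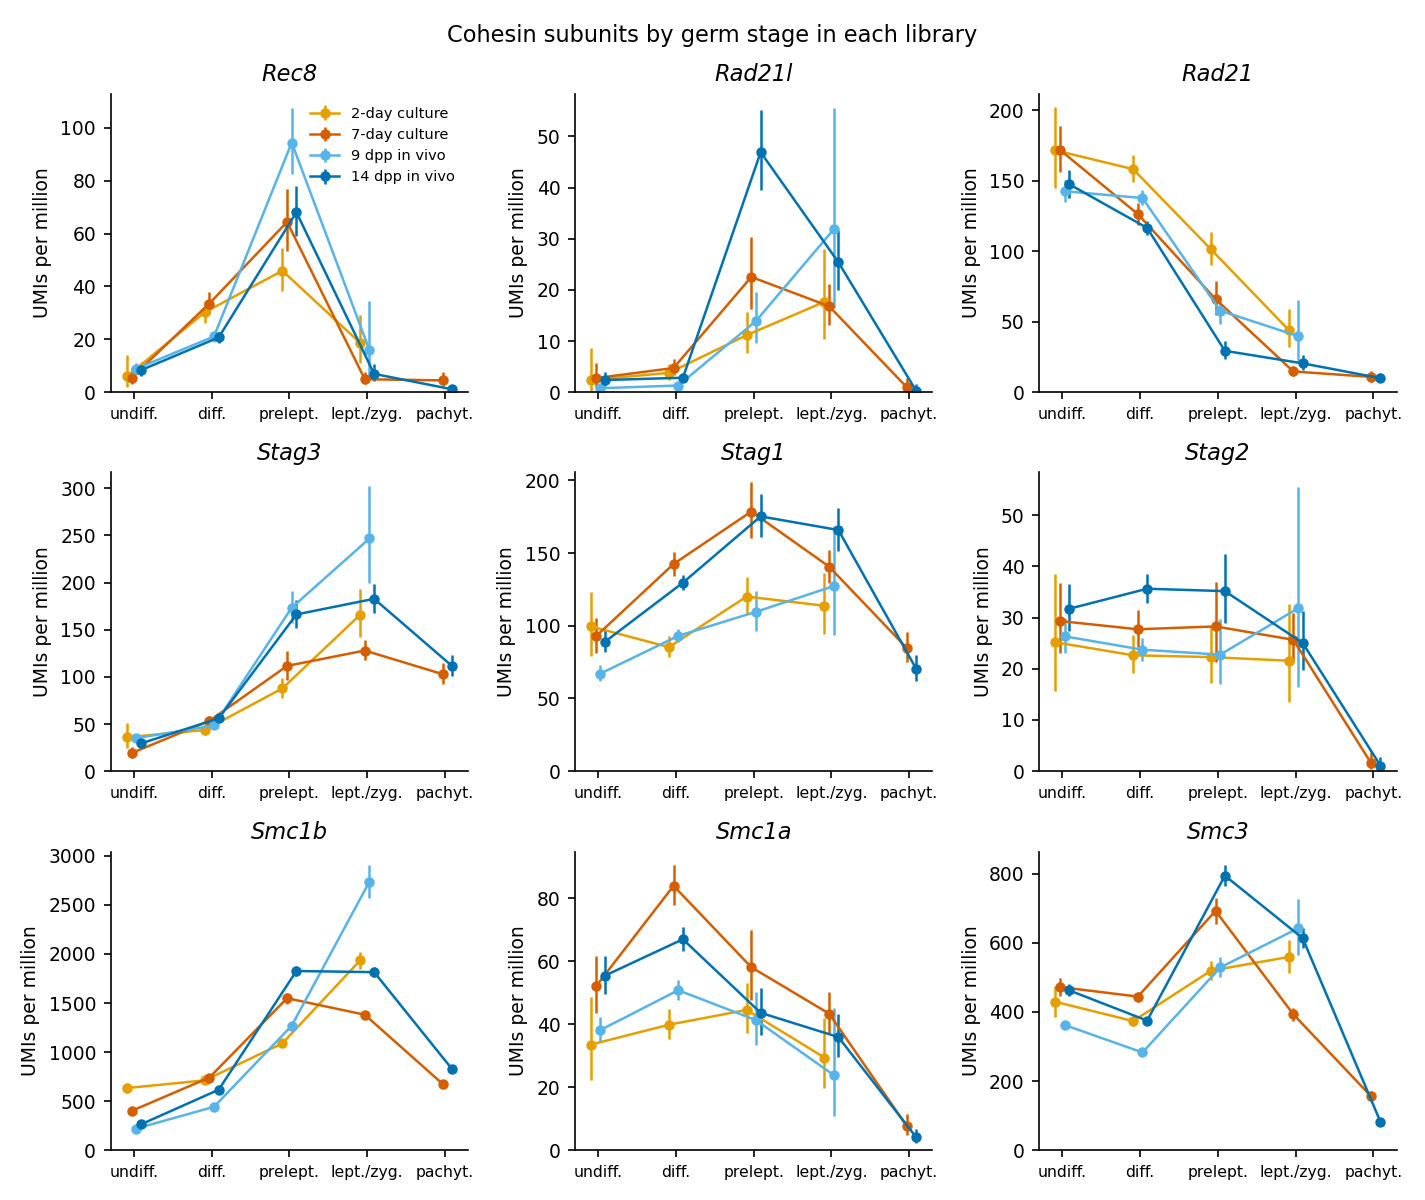
CPM of each subunit by germ stage (linear axes from 0), 1 coloured line per library, with exact 95% Poisson intervals as bars. Stages of fewer than 20 cells are not drawn. Rec8 peaks at preleptotene in all 4 libraries (46.0 to 94.5), Rad21 is lower at each stage than at the one before in every library, and Rad21l and Stag2 are at or below 1.59 in pachytene-like cells.

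Detection of several meiotic transcripts in 1 cell is limited by depth: at 2000 UMIs, Rad21l was seen in 2.27% to 9.87% and Rec8 in 7.26% to 17.2% of preleptotene-like cells. With cells thinned to 2000 UMIs, at least 3 of Rec8, Rad21l, Stag3 and Smc1b were detected together in 2.27%, 2.97%, 5.44% and 6.11% of preleptotene-like cells. In undifferentiated-like cells that was so for 1 of 590 cells at 9 dpp and for none of 143, 179 and 433 in the other libraries. None of the 4 was detected in 4.86% to 14.5% of preleptotene-like cells and in 28.0% to 61.4% of undifferentiated-like ones.

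By step, 5 of 9 subunits rose and none fell from undifferentiated to differentiating, where 43.7% of all genes were called (21.3% higher, 22.4% lower). From differentiating to preleptotene 6 rose and 1 fell, against 37.5% of genes called (19.4% higher, 18.1% lower). The median log2 fold change of the subunits in that step was 0.84, and that of all genes tested was -0.08. From preleptotene to leptotene or zygotene 1 rose and 2 fell (42.6% of genes called, 18.8% higher and 23.8% lower), and into pachytene none rose and 6 fell (52% of genes called, 25.1% higher and 26.9% lower). The count of 5 in the first step was 3 without the 7-day culture, 3 without 9 dpp and 2 without 14 dpp, and Rec8 was called in each of the 13 alternatives. With the germ cells that held a somatic list kept, the calls of Stag3 and Smc1b in the first step (edgeR adjusted p = 0.249 and 0.266) and of Smc1b at preleptotene (0.117) ended. The first-step call of Stag3 also ended under another scoring (0.0592) and that of Smc1b with DESeq2 (0.0541).

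The balance between each meiotic subunit and its paralogs was expressed as a share of their summed UMIs, which compares stages and not the efficiency with which different transcripts are captured. The meiotic share was higher in preleptotene-like than in differentiating-like cells in all 12 combinations of 3 ring positions and 4 libraries. For the kleisins, Rec8 held 3.33%, 3.04%, 5.84% and 5.26% of the UMIs in undifferentiated-like spermatogonia, and 29.0%, 42.1%, 56.9% and 47.2% in preleptotene-like cells. Rad21l held at most 2.87% up to the differentiating stage. It then held 7.03%, 14.7%, 8.38% and 32.5% at preleptotene and 22.0%, 46.2%, 36.4% and 48.1% at leptotene or zygotene, the last from 18, 72, 12 and 77 UMIs. Between those stages Rec8 and Rad21 in the denominator fell, while Rad21l itself had no call and was lower in CPM in the 7-day culture and at 14 dpp. The Stag3 share went from 22.4%, 13.6%, 27.2% and 19.5% in undifferentiated-like cells to 55.05%, 43.5%, 60.8% and 48.9% at leptotene or zygotene and to 54.4% and 60.9% in pachytene-like cells of the 7-day culture and 14 dpp. Into pachytene Stag2 and Stag1 in the denominator fell, and Stag3 itself was lower in CPM in both libraries, without a call. Smc1b held the larger part throughout, from 82.6% in undifferentiated-like cells at 14 dpp to 99.5% in pachytene-like cells of the same library.

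**Figure D4:**
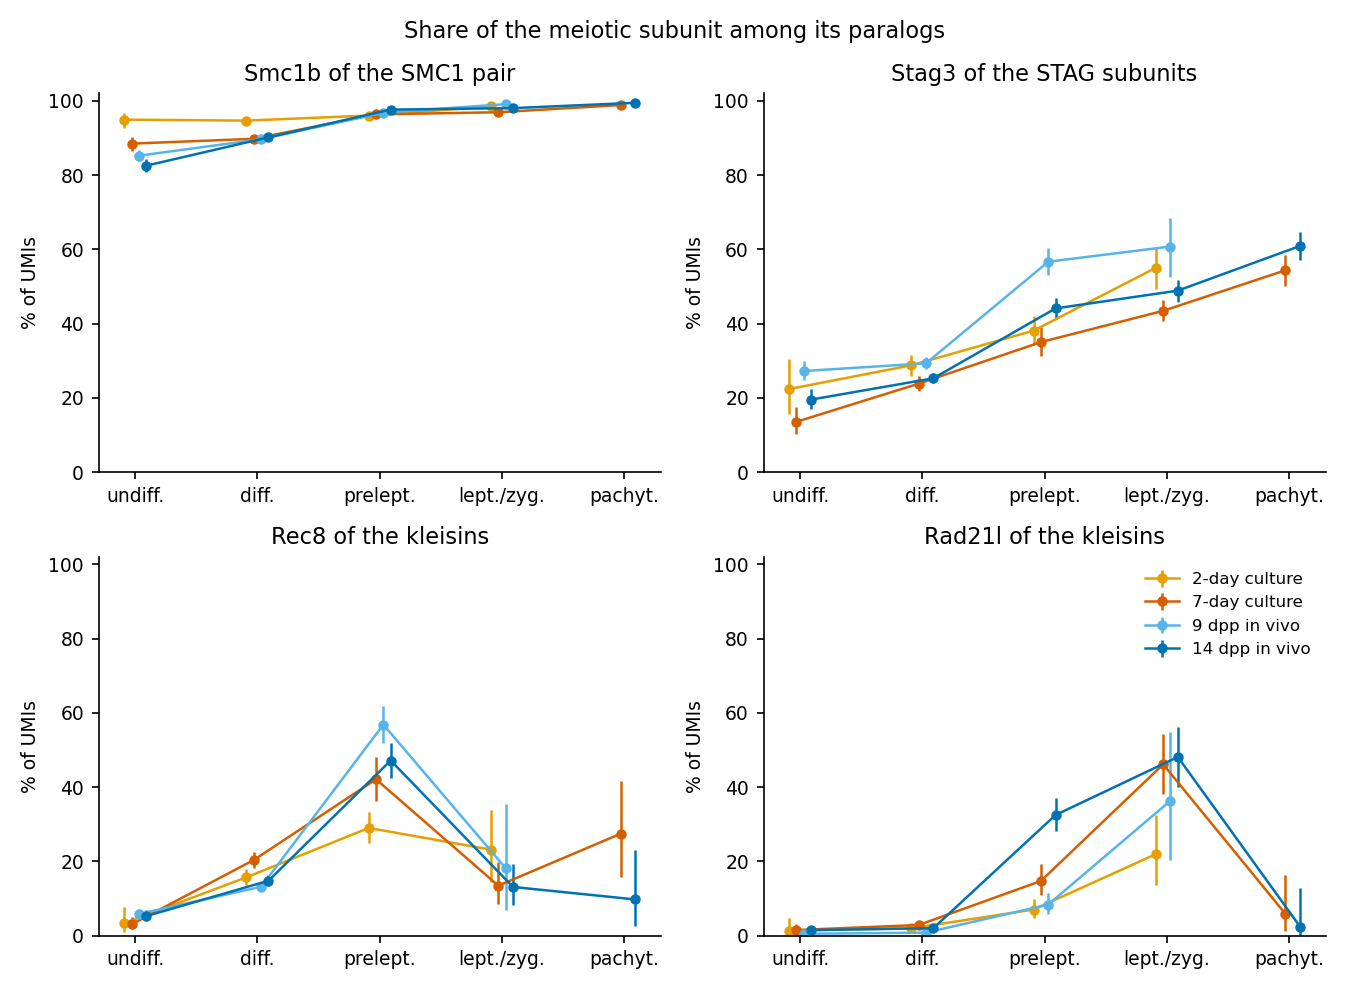
Share of Smc1b, Stag3, Rec8 and Rad21l in the summed UMIs of their paralogs by germ stage, 1 line per library, with exact 95% binomial (Clopper-Pearson) intervals as bars. The Rec8 share is highest at preleptotene in all 4 libraries, and the Rad21l share is highest at leptotene or zygotene, where Rec8 and Rad21 are lower than at preleptotene and Rad21l has no call.

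The X-linked subunits were examined in pachytene-like cells because the X chromosome is silenced at that stage. Stag2 went from 25.7 and 25.1 CPM in leptotene- or zygotene-like cells of the 7-day culture and 14 dpp to 1.59 and 1.11, and Smc1a from 43.4 and 36.0 to 7.64 and 4.15. In the fit over all libraries the falls were by 4.10 (SE 0.35, edgeR adjusted p = 9.35e-09) and 2.53 (SE 0.27, adjusted p = 2.05e-07) on the log2 scale. Over the 13 alternatives the log2 fold change ran from -4.38 to -0.96 for Stag2 and from -2.81 to -1.05 for Smc1a. Of 484 X-linked genes tested, 85.5% were called lower, with a median log2 fold change of -3.10, against 24.5% of 12278 autosomal genes with a median of -0.11. Median depth was 14841 and 21792.5 UMIs in the pachytene-like cells of the 7-day culture and 14 dpp against 5322 and 4225 one stage earlier, and its part in these falls was not tested. Under the main settings Stag2 lies near the lower quartile of X-linked genes (-4.07) and Smc1a is above their median. Of the autosomal subunits, Rad21l, Smc3 and Smc1b, all called, and Rec8 (-1.39, not called) lie below the lower quartile of autosomal genes (-1.03). Scaling by library totals in place of TMM moved the median of all genes in this step by -0.24, and germ against other cells by 0.17.

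**Figure D5:**
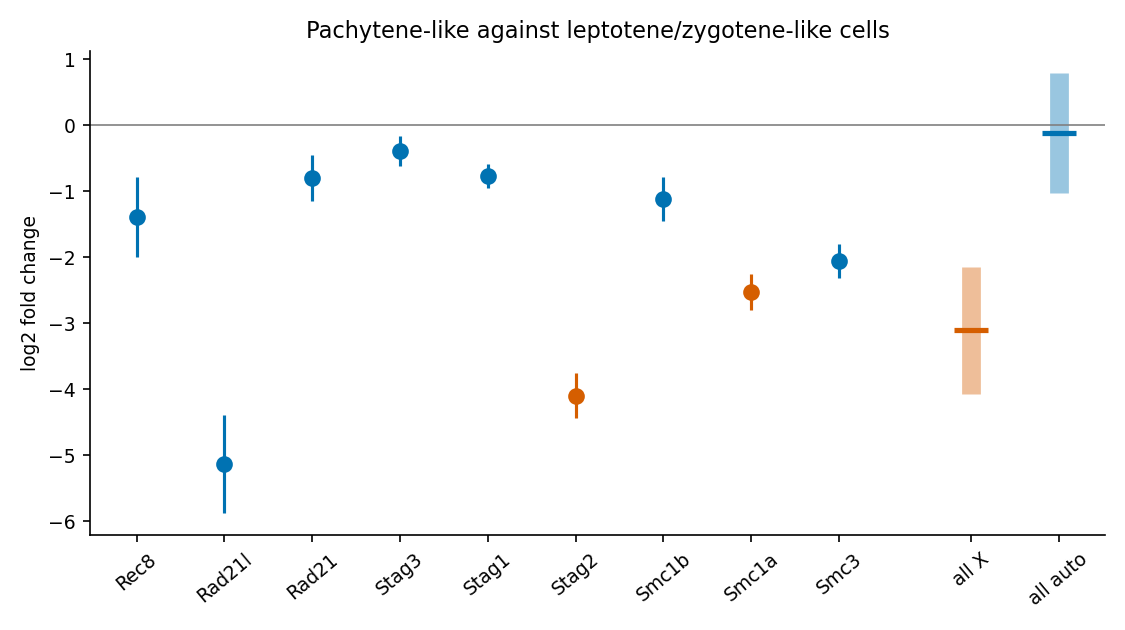
Log2 fold change (edgeR) of each subunit in pachytene-like against leptotene- or zygotene-like cells, with its standard error as bars, X-linked subunits in orange. The shaded bars give the quartiles and the horizontal marks the median of all X-linked (484) and autosomal (12278) genes tested; Stag2 and Smc1a lie within or at the edge of the X-linked quartiles.

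Genes that load, lock or release cohesin were taken from a list of 17 regulators, of which 16 were tested. In germ against other cells 10 were higher and 1 lower (37.4% and 37.7% of all genes). From undifferentiated to differentiating 7 rose and 2 fell (21.3% and 22.4%), and from preleptotene to leptotene or zygotene 4 rose and 3 fell (18.8% and 23.8%), the last near the share over all genes. In the preleptotene step 5 rose and 5 fell (19.4% and 18.1%), with a median log2 fold change of 0.24. Nipbl, which loads the ring onto DNA, rose in this step, from 29.1 to 67.0 CPM over the libraries in differentiating-like to 122 to 364 in preleptotene-like cells (log2 fold change 2.16). It fell by 0.60 at differentiation (edgeR adjusted p = 0.0439), where Rec8, Stag3 and Smc1b rose, and rose by 0.91 at leptotene or zygotene (adjusted p = 0.0033), where Rec8 fell. Calls of single regulators, among them this fall near the threshold, were not followed through the alternatives. Esco2, the acetyltransferase that locks the ring on SMC3, rose by 1.38 in the preleptotene step to between 451 and 728. Cdca5 (sororin), Espl1 (separase), Pttg1 (securin), Sgo1 and Sgo2a (shugoshins) were the 5 that fell in that step, by 1.10, 0.60, 0.92, 0.66 and 0.41. Into pachytene 10 of the 16 fell and 2 rose (26.9% and 25.1% of all genes): Meikin, which protects REC8 in the meiotic divisions, by 1.95 to 43.0 and 79.6 CPM, and Pttg1 by 2.00. Ctcfl, a germ cell paralog of Ctcf, was highest in preleptotene-like cells of each library (8.36 to 20.9) and had no UMI in pachytene-like cells. Of 14 condensin and SMC5/6 subunits, 11 were higher and 1 lower in germ cells, where 75.1% of all genes were called. At differentiation 8 rose (43.7% of all genes called), at preleptotene 5 rose and 2 fell (37.5%), and after it 4 rose and 1 fell (42.6%). Into pachytene 5 of them rose and 5 fell (52%). Smc4, a condensin subunit, rose in every step of the series, by 1.18, 0.72, 0.77 and 0.75, to 2107 and 2166 CPM.

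Over the 18 sums of library and stage, 12603 genes were ranked by the Pearson correlation of their log2 levels with each meiotic subunit. The sums share library, depth and base composition, and the values are descriptive. Nearest to Rec8 were Pmf1 (0.95), Tpm4 (0.95) and Npnt (0.95). Nearest to Rad21l were Ankhd1 (0.97), Kdm5a (0.97) and Myo9a (0.97). Nearest to Stag3 were Hdgfl2 (0.98), Sec62 (0.98) and Sdf2l1 (0.98). Nearest to Smc1b were Cutc (0.98), Uvssa (0.97) and Terb2 (0.96), a protein of the meiotic telomere attachment. The 4 lists had no gene in common. Between the subunits themselves, Stag3 and Smc1b were the closest meiotic pair (0.90), Rec8 and Rad21l reached 0.55, and Rad21 was opposed to Stag3 (-0.74).

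The culture was compared with the animal at equal total age, on log2 ratios of CPM with 1 added. With 1 library per group there is no test, and a ratio of 2-fold is used as a size. At 14 days of total age the germ cell ratios of the 7-day culture to 14 dpp ran from -0.18 (Stag2) to 0.23 (Smc1b). None of the 9 subunits passed 2-fold, against 5.65% of all genes, so that count says little by itself. Of the germ cells staged, 29.5% were leptotene- or zygotene-like in the 7-day culture and 16.8% at 14 dpp, and 7.51% and 12.2% were undifferentiated-like. The part of this makeup in the ratios was not tested. At 9 days of total age 1 subunit passed 2-fold, against 6.24% of all genes: Rad21l, with 6.26 CPM (82 UMIs) in cultured against 2.34 (83 UMIs) in 9 dpp germ cells, a log2 ratio of 1.12. Smc1b was just short of it, at 833 against 419 (0.99), and Smc3 had 399 against 299 (0.42). Germ cells of the 2-day culture held fewer undifferentiated-like and more leptotene- or zygotene-like cells, 5.75% and 15.01% of those staged, than germ cells at 9 dpp, 23.7% and 2.73%, and the part of this makeup in the ratios was not tested apart from the values by stage below. Between the ages in vivo Rad21l again passed 2-fold (7.35 at 14 dpp against 2.34 at 9 dpp, log2 ratio 1.32, 7.21% of genes). Between the 7-day and 2-day cultures no subunit did (8.23% of genes), and Rec8 and Rad21 were lower in the 7-day culture by 0.49 and 0.59 on the log2 scale. Without the cells that held a somatic marker list, the ratios of Rad21l were 1.18 in the 2-day culture against 9 dpp and 1.46 in vivo. With a pseudocount of 10 in place of 1, neither Rad21l ratio passed 2-fold.

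Within stages a few values departed by 2-fold, all with Poisson intervals that did not overlap. Undifferentiated-like cells of the 2-day culture had 633 CPM of Smc1b against 221 at 9 dpp (log2 ratio 1.52, 1 of 8 subunits tested, 9.13% of genes). The 2-day culture also had more Smc1b in other cells, 26.0 against 6.38 CPM, and its undifferentiated-like cells were shallower, with a median of 5399 against 14956.5 UMIs; their part in the ratio was not tested. In preleptotene-like cells Rec8 was lower in the 2-day culture than at 9 dpp, 46.0 against 94.5 (log2 ratio -1.02, 1 of 9 subunits, 4.11% of genes). Preleptotene-like cells of the 7-day culture had more Rad21 and less Rad21l than those of 14 dpp, 66.0 against 29.3 and 22.5 against 46.9 (log2 ratios 1.14 and -1.03, 2 of 9 subunits, 4.71% of genes). In vivo, Rad21l in these cells was higher at 14 dpp than at 9 dpp (46.9 against 13.9, log2 ratio 1.68, 1 of 9 subunits, 3.02% of genes). In leptotene- or zygotene-like cells Rad21 was lower in the 7-day than in the 2-day culture (14.7 against 44.1, log2 ratio -1.52, 1 of 8 subunits, 19.1% of genes). Differentiating-like cells differed 2-fold for Smc1a alone, 84.0 in the 7-day against 39.9 in the 2-day culture (log2 ratio 1.06, 1 of 9 subunits, 6.24% of genes). In pachytene-like cells the 7-day culture and 14 dpp differed 2-fold for none of the 5 subunits with enough UMIs to compare (7.99% of genes).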

How the data were processed

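The deposited files hold raw UMI counts per gene and cell barcode, made by the authors with Cell Ranger 3.0.2 on mm10 per the submitters' processing notes, from 10x Chromium 3′ libraries per the labels' protocols. Barcodes below 500 detected genes or above 20% mitochondrial UMIs were dropped, and doublets called by Scrublet at an expected rate of 6% (253, 93, 143 and 143 cells) were removed (scanpy 1.11.5). Counts were summed per library and class or stage (sums of at least 20 cells) and tested with edgeR 4.0.16 (quasi-likelihood, TMM, library as a block, Benjamini-Hochberg threshold 0.05). The 4 libraries stand in as replicates there, and p-values measure only the spread between these samples. The script was tested on simulated data with known fold changes. Ratios between libraries used log2 of CPM plus 1 and required 50 UMIs in the pair together. Alternatives used DESeq2 1.42.0, other filters, scalings, cell definitions and single libraries left out. A cell took the stage whose marker list, scaled to the mean of the top 10% of germ cells, was highest, with at least 3 marker UMIs. Genes named are the subunits, the regulator, condensin and SMC5/6 lists, the cell type markers, and the 3 genes most correlated with each meiotic subunit among those with at least 200 germ cell UMIs. Members and lists were chosen with earlier results of these data known.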

Additional observations from a re-analysis of the deposited data

Results flagged for a closer look

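A few subunits differed between libraries in opposite directions in the paired contrasts of the design, with counting intervals that did not overlap in either. Each contrast is 1 library against 1, and the difference between contrasts was not tested. All values are log2 ratios of CPM plus 1. Smc1a in germ cells was lower in the 2-day culture than at 9 dpp (-0.19) and higher in the 7-day culture than at 14 dpp (0.19). Without the germ cells that held a somatic marker list, these ratios were -0.20 and 0.10 and the intervals overlapped in both pairs. In differentiating-like cells the Smc1a ratios were -0.34 and 0.32. Stag1 in other cells had ratios of -0.36 and 0.23 for the same pairs. Smc1b in undifferentiated-like cells was higher at 14 than at 9 dpp (0.25) and lower in the 7-day than in the 2-day culture (-0.66). In other cells the Smc1b ratios over time were 1.18 in vivo and -0.37 in culture.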

How the results depend on the processing

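The calls for Rec8 in the first 3 stage steps, for Rad21l, Stag3 and Smc3 at preleptotene and for Rad21l, Smc3, Smc1b, Smc1a and Stag2 into pachytene kept their direction and their side of the threshold in all 13 alternatives. The sizes of these calls varied. Over the 13 alternatives the log2 fold change of Rec8 into leptotene or zygotene ran from -3.36 to -1.54. Into pachytene it ran from -6.49 to -2.98 for Rad21l, -2.71 to -1.35 for Smc3 and -2.03 to -0.89 for Smc1b. For the X-linked Smc1a and Stag2 it ran from -2.81 to -1.05 and from -4.38 to -0.96. In germ against other cells, 8 subunits were called, 7 to 8 with a library left out, and 11321 genes, 10479 to 10837. From undifferentiated to differentiating, 5 subunits were called, but 3 with DESeq2, 3 without the library block, 2 under another scoring of the stage lists, 3 with germ cells of at least 4 UMIs, 1 with the mixed cells kept and 2 to 5 with a library left out. The genes called in that step were 5591, 3313 with the mixed cells kept and 3682 to 5948 with a library left out. Into preleptotene 4805 genes were called, 971 under another scoring, 2297 with the mixed cells kept and 1822 to 5338 with a library left out. Into leptotene or zygotene 3 subunits were called (1 with the mixed cells kept, 2 to 3 with a library left out) and 5458 genes (2707 under another scoring, 3185 with the mixed cells kept, 3579 to 5485 with a library left out). Into pachytene 6659 genes were called, 3765 with the mixed cells kept and 3922 to 6466 with a library left out, where a lone pachytene sum is assumed to vary like the others. The cause of these changes was not tested.

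With a pseudocount of 10 no subunit passed 2-fold in the 2-day culture against 9 dpp (0 in place of 1) or at 14 against 9 dpp (0 in place of 1). Within stages, the count for the 2-day culture against 9 dpp went from 2 to 1 under another scoring and to 1 with cells weighted equally. That for the 7-day culture against 14 dpp went from 2 to 1 under another scoring and to 1 with at least 5 marker UMIs. That for 14 against 9 dpp went from 1 to 4 under another scoring, 2 with at least 5 marker UMIs and 4 with cells weighted equally, and that for the 7-day against the 2-day culture from 2 to 1 with cells weighted equally. The share of all genes past 2-fold was not computed under these settings, so the counts have no background to be read against.

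Log2 fold changes that passed no threshold changed sign in 28 cases. From undifferentiated to differentiating, Stag2 was at 0.027 with no filter, 0.025 under another scoring and -0.11 to 0.0062 with a library left out. Into preleptotene, Stag2 was at -0.015 with DESeq2, -0.015 with library totals, -0.029 with germ cells of at least 4 UMIs, -0.042 with the mixed cells kept and -0.026 to 0.077 with a library left out. Into leptotene or zygotene, Rad21l was at 0.13 with DESeq2, 0.35 under another scoring and -0.32 to 0.39 with a library left out. Stag1 was at 0.020 with DESeq2, 0.037 with no filter, 0.0025 without the block, 0.36 under another scoring, 0.018 with at least 5 marker UMIs and -0.059 to 0.063 with a library left out. Stag2 was at 0.25 under another scoring, 0.0024 with at least 5 marker UMIs and -0.14 to 0.16 with a library left out. Smc1a was at 0.12 under another scoring, and Smc3 at 0.23 under another scoring and -0.24 to 0.033 with a library left out. Into pachytene, Rad21 was at 0.65 under another scoring and 0.46 with the mixed cells kept. The mixed-cell alternatives were chosen after seeing the data. No paired analysis was possible because each group has 1 library; this holds for the contrasts between libraries, while cell classes and stages were compared with the library as a block. Depth limits Rad21l most, with 82 UMIs in germ cells of the 2-day culture and 83 at 9 dpp.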
